A study of Mus musculus with 60 samples.

Results

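RNA from the hippocampus was compared between mice that carried a melanoma labelled as non-cachectic (NCAC) and mock-injected mice (Con) at the early times of the series, 2 and 4 wk after injection. The comparison took every NCAC library of these times, 10 in all, and every Con library of these times, also 10, so that 20 of the 60 libraries of the series entered. NCAC at 2 wk, Con at 2 wk, NCAC at 4 wk and Con at 4 wk held 5 libraries each. All mice were female and 2 months old per the labels. NCAC mice had been injected with melanoma cells that the labels call non-cachectic, and Con mice had a mock injection. The third group of the series, CAC, received melanoma cells called cachectic. The labels disagree on the strain, since the sample labels give C57BL6/J and the design text gives NCI Ath/nude. The extraction protocol refers to a further tumour line that matches none of the groups. The melanoma lines are not named, and no tumour size, body weight or food intake was used here. The labels call the libraries biological replicates without saying that they come from separate animals, and the p-values therefore reflect only how these libraries vary.

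The hippocampus is the folded cortex that serves memory and takes part in the control of the stress axis. Its principal neurons are the granule cells of the dentate gyrus and the pyramidal cells of the fields CA1 to CA3, with inhibitory interneurons, astrocytes, oligodendrocytes, microglia and vessels among them. A tumour elsewhere in the body can reach the brain through cytokines, glucocorticoids, altered feeding and altered sleep. Cachexia is the wasting syndrome of cancer, and a tumour that does not cause it separates the presence of a tumour from the wasting. The early times ask whether such a tumour changed the hippocampal transcriptome before any late state.

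Recovered depth was 34942308 to 38292210 reads per library, and the correlation of log2 values between replicates of a group was 0.977 to 0.991. Markers that define the hippocampal fields were present in every library. Wfs1 of CA1 had a median of 113.8 TPM in NCAC and 113.9 TPM in Con, and Prox1 of the dentate gyrus 51.9 TPM in NCAC and 50.4 TPM in Con. RNA of neighbouring tissue varied between libraries. Replicate 2 of Con at 4 wk stood apart for genes of the striatum: its Drd2, a dopamine receptor of striatal neurons, was 83.1 TPM, against 1.62 to 7.11 TPM in NCAC and 2.38 to 4.21 TPM in the other Con libraries of 4 wk. It is called the striatum-rich library here, a name given after its values were seen. Mlana and Tyr, genes of the melanocyte lineage, did not exceed 0.288 TPM in any of the 20 libraries, and the T cell genes Cd3e and Cd8a did not exceed 0.14 TPM.

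No gene passed the test over both times. With limma on log2(TPM + 0.5), week as a covariate and Benjamini-Hochberg adjustment, 0 of 15608 genes tested (0%) had an adjusted p under 0.05, and the smallest adjusted p was 1.00. At an unadjusted p under 0.05 there were 674 genes, 4.32% of those tested, of which 386 were higher in NCAC (2.47%) and 288 lower (1.85%). Of all genes tested, 48.8% had a difference above 0. The voom method on reads recovered from the TPM values also called 0 genes, with 775 at an unadjusted p under 0.05. The median size of the difference was 0.05 on the log2 scale, and 17 genes differed by more than 2-fold.

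The intervals show what size of difference the 20 libraries could have missed. The median half-width of the 95% interval was 0.14 log2 units over all genes. It was 0.27 for 3880 genes under a mean of 5 TPM, 0.14 for 4174 genes of 5 to 20 TPM and 0.10 for 7554 genes of at least 20 TPM. The whole interval lay within a log2 difference of 1 either way for 15386 genes (98.6%) and within 0.5 for 14069 genes (90.1%). For the 222 genes outside the wider bound a 2-fold difference was inside the interval. These intervals do not bound a difference at a single time, or differences of opposite sign that cancel in the average. At 2 wk 67 genes differed by more than 2-fold, and at 4 wk 37, against 17 over both.

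Among the genes with the smallest p that were higher in NCAC, Ccs came first, at chr19:4825366-4839332 of the mouse build GRCm38 on the minus strand. It encodes the copper chaperone that loads superoxide dismutase 1. Ccs was 36.8 TPM at the lowest, 42.1 at the median and 46.1 at the highest in NCAC, against 31.0, 35.6 and 39.6 TPM in Con. The ranges overlapped, and the log2 difference was 0.22 ± 0.05 (SE, limma's adjusted p = 1).

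Gtf3a encodes the transcription factor that RNA polymerase III needs for the 5S ribosomal RNA. It had a lowest, median and highest value of 15.5, 17.3 and 19.6 TPM in NCAC, against 13.5, 15.0 and 17.2 TPM in Con, a log2 difference of 0.21 ± 0.05. Orai2, a subunit of store-operated calcium channels, had 117.6, 139.8 and 150.4 TPM in NCAC and 96.4, 119.6 and 133.6 TPM in Con, a difference of 0.22 ± 0.06, which was 0.19 without the striatum-rich library. Every NCAC library lay above the Con median for Gtf3a, and the ranges of both genes overlapped.

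Bok, a BCL2-family member that resides largely in the endoplasmic reticulum, had 53.6, 71.3 and 80.3 TPM in NCAC and 49.7, 59.5 and 70.9 TPM in Con, a log2 difference of 0.26 ± 0.07. Its difference was 0.10 at 2 wk and 0.43 at 4 wk, and only at 4 wk did the groups not overlap. Over both times it was 0.24 without the striatum-rich library. Sfmbt2, a Polycomb-type protein, showed the largest difference of the 12 leading genes that were higher, 0.41 ± 0.11, with a median of 3.95 TPM in NCAC and 2.55 TPM in Con. The other 7 were Ints5 of the Integrator complex, Nup62 of the nuclear pore, Grina, the lysosomal Plbd2, the phosphoinositide kinase gene Pip4k2c, Mtch1 of the mitochondrial outer membrane and Slc3a2, the heavy chain of several amino acid transporters. Their differences lay between 0.11 and 0.17. All 12 genes overlapped between the groups and had an adjusted p of 1.

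Among the genes with the smallest p that were lower in NCAC were a receptor subunit gene and an enzyme gene of low level. Kctd8, an auxiliary subunit of the GABA-B receptor, was 3.05 TPM at the lowest, 3.92 at the median and 4.59 at the highest in NCAC, against 3.88, 5.17 and 8.23 TPM in Con, a log2 difference of -0.37 ± 0.09. Th, tyrosine hydroxylase, the first enzyme of catecholamine synthesis, had 0.303, 0.533 and 0.763 TPM in NCAC and 0.491, 0.939 and 2.02 TPM in Con, a difference of -0.58 ± 0.15. The highest Con value of both genes came from the striatum-rich library, and for Th a Con library of 2 wk was nearly as high, at 1.98 TPM. Without the striatum-rich library the differences were -0.31 for Kctd8 and -0.49 for Th, and whether striatal RNA takes part in the rest was not tested. Both genes had an adjusted p of 1.

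Gabra3 encodes the alpha 3 subunit of the GABA-A receptor. It had 48.5, 56.8 and 69.0 TPM in NCAC, against 56.6, 66.5 and 82.3 TPM in Con, a log2 difference of -0.23 ± 0.07. The values overlapped at 2 wk and did not at 4 wk. Angpt1, the ligand of the endothelial receptor Tie2, had 6.93, 8.35 and 10.6 TPM in NCAC and 8.50, 10.3 and 13.03 TPM in Con, a difference of -0.27 ± 0.07. Angpt1 differed by -0.25 at 2 wk and by -0.29 at 4 wk, and the ranges overlapped at each time.

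The remaining 8 of the 12 lower genes were Ttc9, Elovl5, an elongase of polyunsaturated fatty acids, Lgi2, a secreted protein of the LGI family, the lipid droplet enzyme Pnpla3, Fank1, Ccdc90b, the HMG-box factor Tox2 and Fyb, an adaptor of T cells and myeloid cells. Their differences were -0.33 for Lgi2, -0.26 for Tox2 and Fyb, -0.24 for Fank1, -0.17 for Ttc9, -0.14 for Elovl5 and -0.13 for Pnpla3 and Ccdc90b. Every gene of the 12 overlapped between the groups over both times and had an adjusted p of 1.

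**Figure D1:**
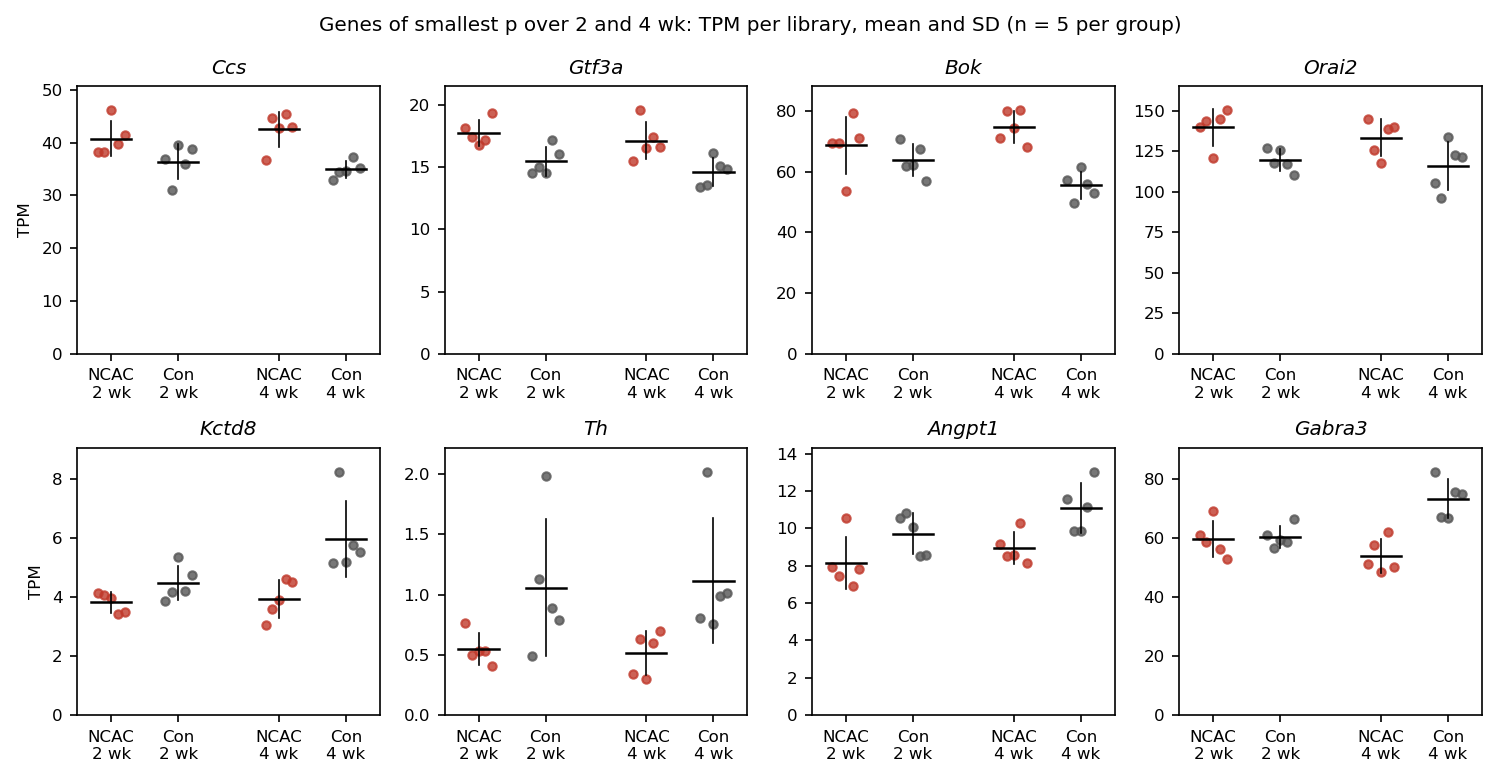
TPM (vertical axes, from 0) of 8 of the genes with the smallest p over both times, with a point per library, the mean as a horizontal line and the SD as a vertical line, for NCAC (red) and Con (grey) at 2 and 4 wk, 5 libraries each. The upper row holds genes that were higher in NCAC and the lower row genes that were lower, and the points of the groups overlap in all of them over both times.

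The median size of the difference was 0.09 on the log2 scale at 2 wk and 0.09 at 4 wk, against 0.05 over both. At 4 wk, 0 of 15608 genes passed (0%), with 1697 at an unadjusted p under 0.05 (10.9%), 675 higher (4.32%) and 1022 lower (6.55%) in NCAC, 41.4% of all genes had a difference above 0, and the smallest adjusted p was 0.0571. Voom also called 0 genes, with 1705 at an unadjusted p under 0.05. Under median-of-ratios scaling of the TPM values the split turned round, to 964 higher and 763 lower. With the trend of each library on GC content and gene length removed it was 674 higher and 537 lower.

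Klk8 had the largest positive difference among the leading genes at 4 wk. It encodes neuropsin, a secreted serine protease of hippocampal neurons that takes part in synaptic plasticity, and lies at chr7:43797577-43803826. The 5 NCAC libraries of 4 wk had 25.5, 26.1, 28.5, 25.0 and 27.8 TPM, and the 5 Con libraries had 14.7, 16.5, 24.9, 17.6 and 17.6 TPM. The groups did not overlap, by a small margin at replicate 3 of Con, and the log2 difference was 0.55 ± 0.10 (adjusted p = 0.0571). At 2 wk Klk8 averaged 26.5 ± 2.2 TPM in NCAC and 26.4 ± 2.0 TPM in Con (SD, n = 5 each), so the 4 wk Con libraries were the low ones. At 6 and 8 wk the Con means were 23.7 and 24.2 TPM.

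Necab1, a neuronal calcium-binding protein gene at chr4:14952245-15149794, had 53.8, 61.0, 62.0, 60.8 and 52.1 TPM in the 4 wk NCAC libraries, against 94.7, 76.6, 69.6, 95.3 and 108.9 TPM in those of Con. Its log2 difference was -0.60 ± 0.11 (adjusted p = 0.0571). Here too the Con libraries of 4 wk were those apart, as the means at 2 wk were 64.6 TPM in NCAC and 62.2 TPM in Con.

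Gabra3, on the X chromosome at chrX:72432681-72656848, had 51.2, 57.5, 48.5, 61.8 and 49.97 TPM in NCAC at 4 wk, against 82.3, 67.1, 66.7, 75.3 and 74.8 TPM in Con, a log2 difference of -0.44 ± 0.08. Trim66, a chromatin-binding TRIM protein, differed by -0.41 ± 0.07, and Tenm4, a teneurin of developing neuronal contacts, by -0.29 ± 0.05. All 3 had an adjusted p of 0.0571 and did not overlap between the groups at 4 wk. Genes picked for a small p tend to separate in the same libraries, and non-overlap was not counted over all genes. Bok (0.43), Mpv17l2 (0.36), a mitochondrial protein gene, and Atp5h (0.33), a subunit of ATP synthase, completed the genes with the smallest p that were higher.

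Whether these genes were called at 4 wk turned on small choices. With only the genes that reached 5 TPM in at least 4 libraries, 7 passed at an adjusted p of 0.0386: Klk8 higher, and Necab1, Gabra3, Trim66, Tenm4, Grik3 and Prrg3 lower, of which Grik3, a kainate receptor subunit, and Prrg3 are named for that call. Without replicate 3 of Con at 4 wk, 45 genes passed, and without replicate 4 of NCAC at 4 wk, 2 did. With the trend of each library on GC content and gene length removed, Klk8 was at 0.46, Necab1 at -0.50 and Gabra3 at -0.38, with an adjusted p of 0.159. In that fit Tenm4 was at -0.21 and Atp5h at 0.28 (both adjusted p = 0.159), Trim66 at -0.34 (0.21), Bok at 0.32 (0.362) and Mpv17l2 at 0.15 (0.84). Without the striatum-rich library the differences were 0.52 for Klk8, -0.65 for Necab1 and -0.47 for Gabra3. Over every alternative the smallest adjusted p of this comparison ran from 0.000389 to 0.227.

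At 2 wk, 0 of 15608 genes passed (0%), with 1488 at an unadjusted p under 0.05 (9.53%), 914 higher (5.86%) and 574 lower (3.68%) in NCAC, and 58.5% of all genes had a difference above 0. The split became 574 higher and 811 lower under median-of-ratios scaling. The unadjusted count depended on single libraries, with 796 genes without replicate 2 of NCAC at 2 wk and 813 without replicate 4 of Con at 2 wk. Voom called 0 genes, with 1365 at an unadjusted p under 0.05, and the smallest adjusted p was 0.508. The leading genes that were lower were the neighbouring nuclear RNAs Malat1 (chr19:5795690-5802672) and Neat1 (chr19:5824708-5845478), of which Neat1 is the scaffold of paraspeckles.

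Malat1 had 324.6, 227.4, 371.7, 377.3 and 352.5 TPM in the NCAC libraries of 2 wk, and 459.1, 426.1, 545.4, 553.9 and 494.8 TPM in those of Con, a log2 difference of -0.60 ± 0.13. Neat1 had 121.8, 103.5, 110.4, 104.3 and 118.4 TPM in NCAC and 134.2, 158.0, 181.4, 163.6 and 141.9 TPM in Con, a difference of -0.47 ± 0.11. Neither gene overlapped between the groups at 2 wk, and both had an adjusted p of 0.508.

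At 4 wk the order of the group means was the other way for both. Malat1 averaged 410.7 ± 81.2 TPM in NCAC and 307.4 ± 22.1 TPM in Con (SD, n = 5 each). Neat1 averaged 152.3 ± 31.2 TPM in NCAC and 137.9 ± 15.2 TPM in Con. Kcnj8, the potassium channel subunit of pericytes, differed by -0.40 at 2 wk and Cks2, a subunit of cyclin-dependent kinases, by -0.60. The leading genes that were higher at 2 wk were Arhgef37 (0.49), Csmd1 (0.27), Lenep (1.84) and Slc25a44 (0.19), the mitochondrial carrier of branched-chain amino acids. Lenep was low throughout, at 1.12 to 6.43 TPM in NCAC and 0 to 1.44 TPM in Con at 2 wk. With the trend of each library on GC content and gene length removed, Cks2 was at -0.33 (adjusted p = 0.531) and Csmd1 at 0.17 (0.517). In that fit Malat1 was at -0.56, Neat1 at -0.49, Kcnj8 at -0.41, Arhgef37 at 0.47, Lenep at 1.88 and Slc25a44 at 0.16, each with an adjusted p of 0.517.

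**Figure D2:**
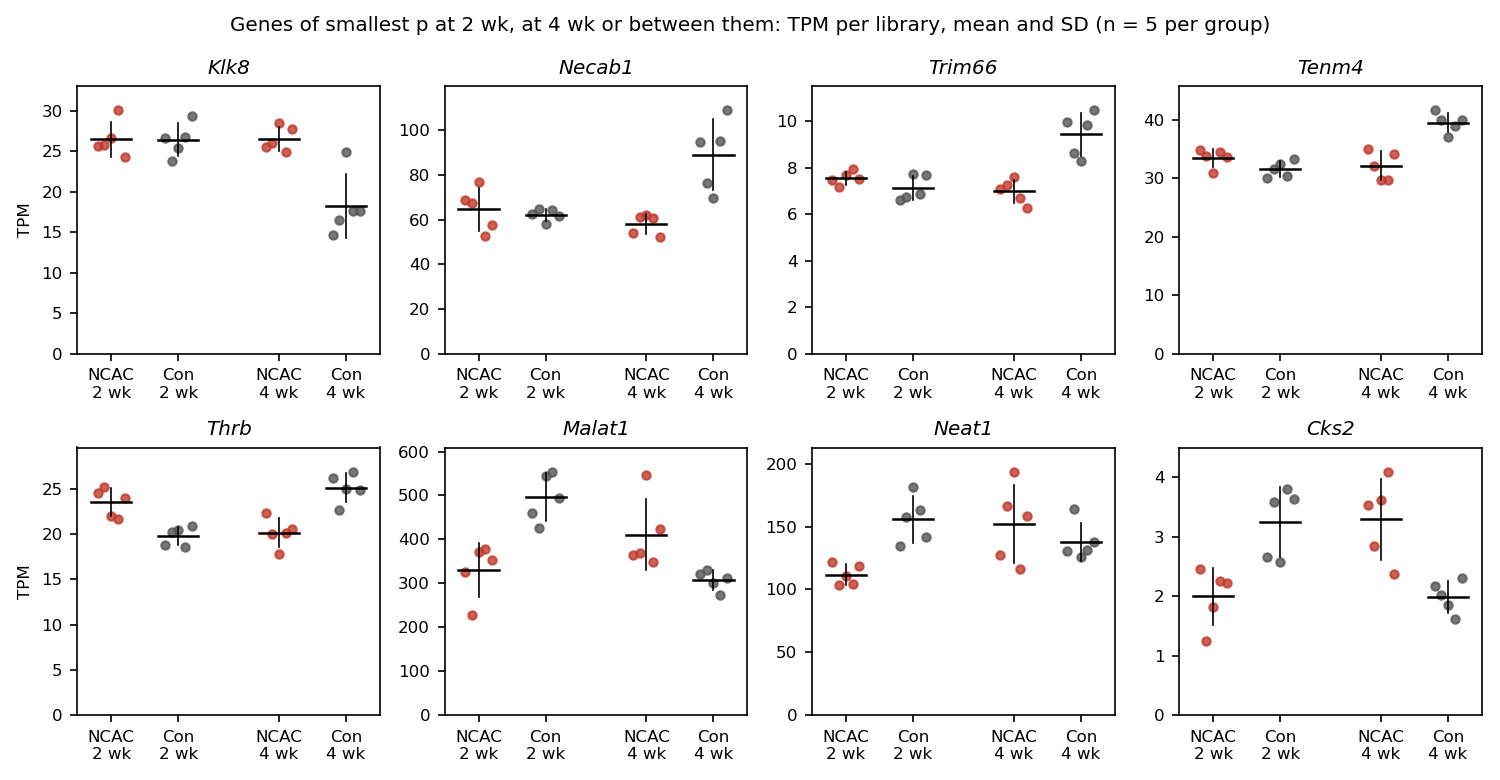
TPM (vertical axes, from 0) of 8 genes with the smallest p at 2 wk, at 4 wk or in the change between them, with a point per library, mean and SD, for NCAC (red) and Con (grey). For Klk8, Necab1, Trim66 and Tenm4 the Con mean of 4 wk stands away from the means of the other 3 groups. Thrb, Malat1, Neat1 and Cks2 have the order of the NCAC and Con means exchanged between the times.

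The differences at the 2 times ran against each other. Over the 15608 genes, 9997 (64.1%) had a different sign at 2 wk and at 4 wk, with a correlation across genes of -0.23 (Pearson) and -0.26 (Spearman). The times share no library, but genes are not independent replicates and share each library's composition, so no p is given. In the direct test of the change, the difference at 4 wk minus that at 2 wk, 0 of 15608 genes passed (0%), with 2748 at an unadjusted p under 0.05 (17.6%), 1018 positive (6.52%) and 1730 negative (11.1%), and 38.9% of all genes were above 0. That split became 1417 positive and 982 negative under median-of-ratios scaling. With the trend on GC content and length removed, 1631 genes had an unadjusted p under 0.05, 812 positive and 819 negative. Voom called 1 gene, Thrb, with 2406 at an unadjusted p under 0.05.

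Thrb encodes the beta receptor of thyroid hormone. It had 24.5, 25.2, 22.0, 21.7 and 24.0 TPM in NCAC and 18.8, 20.2, 20.4, 18.6 and 20.9 TPM in Con at 2 wk. At 4 wk it had 22.3, 20.04, 17.8, 20.1 and 20.6 TPM in NCAC and 26.2, 22.7, 24.9, 26.9 and 24.9 TPM in Con. The groups did not overlap at either time and stood in opposite order, with a change of -0.55 ± 0.09 in log2 (adjusted p = 0.0715 with limma on TPM and 0.0382 with voom, where the smallest adjusted p of this comparison ran from 0.00875 to 0.23 over the alternatives). Malat1 stood at 1.00 ± 0.18 in this comparison and Cks2 at 1.19 ± 0.22, both with an adjusted p of 0.143. The noncoding RNA Pantr1 was at 0.80 and Mpv17l2 at 0.52. Reln, the secreted glycoprotein of Cajal-Retzius cells and interneurons, was at -0.59, and Arnt2, a neuronal bHLH-PAS factor, at -0.30.

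Median differences ran with gene length in opposite directions at 2 wk and at 4 wk. Genes were split by length into 4 classes of nearly equal size. In the class of the shortest genes, up to 2275 bases, the median difference was -0.08 at 2 wk and 0.08 at 4 wk. In that of the longest genes, from 5834 bases, it was 0.07 at 2 wk and -0.08 at 4 wk. With both times in the fit these medians were near 0. The slope of a library on log2 gene length, relative to the mean of all libraries, averaged 0.0251 in NCAC and -0.0459 in Con at 2 wk, and -0.0221 in NCAC and 0.0429 in Con at 4 wk. Neither difference passed a two-sided exact permutation test (p = 0.0635 at 2 wk and 0.0952 at 4 wk). Both were 0.159 after adjustment over 4 tests, with 0.00794 the smallest p that 5 against 5 allows. The slope on GC content, per 10 percentage points, averaged -0.0329 in NCAC and -0.0068 in Con at 2 wk. At 4 wk it averaged 0.0436 in NCAC and -0.0039 in Con. The same permutation test gave p = 0.651 at 2 wk and 0.119 at 4 wk for the GC slope. Each library's trend on GC content and length, both together, was then removed for the 15062 genes with a known GC content (96.5%). The correlation between the times became -0.04, and 54.0% of genes had a different sign. The part of length alone in this was not tested. In that fit the change between the times was 0.96 for Malat1, 0.90 for Pantr1, 0.73 for Cks2, -0.41 for Thrb (adjusted p = 0.191), -0.40 for Reln, -0.20 for Tenm4, -0.17 for Arnt2 and 0.02 for Mpv17l2.

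**Figure D3:**
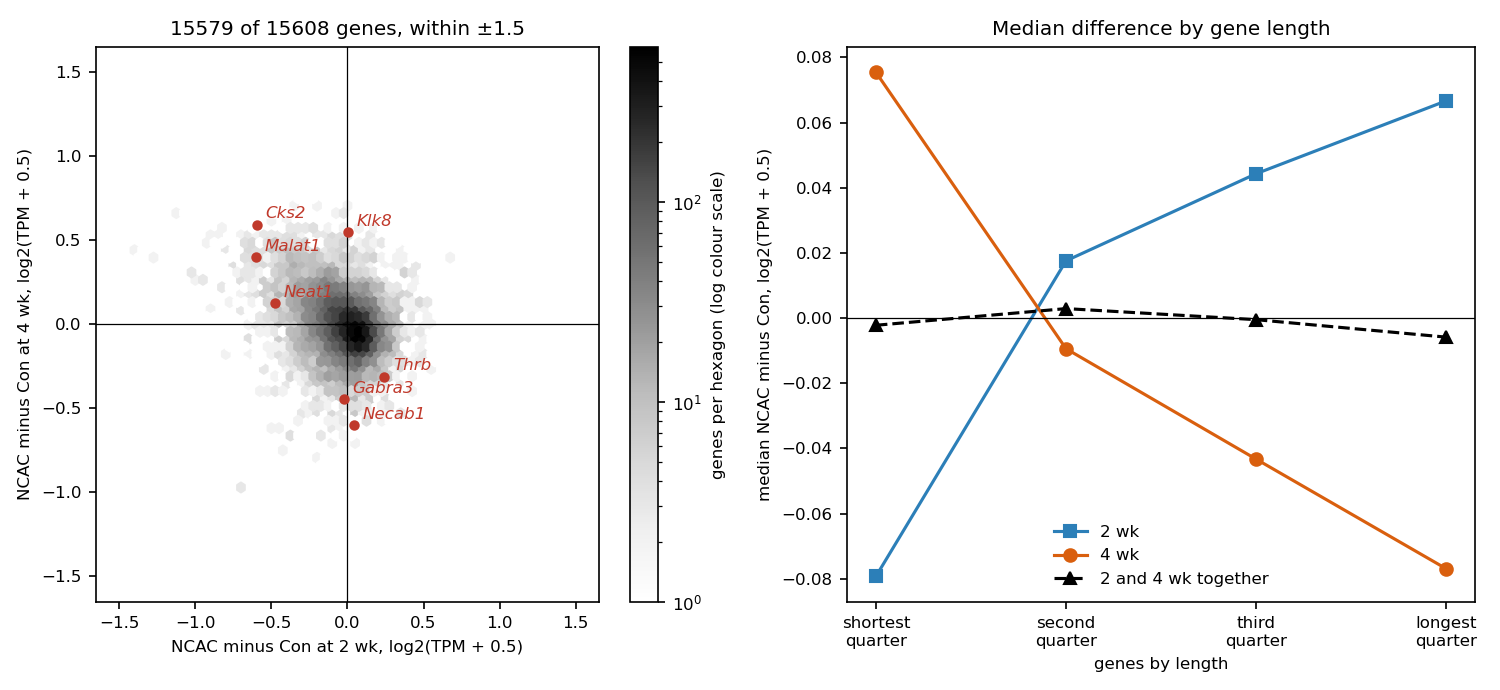
Left, the NCAC minus Con difference at 4 wk (vertical axis) against that at 2 wk (horizontal axis) on the log2(TPM + 0.5) scale, with genes counted per hexagon and named genes in red. Right, the median difference in 4 classes of genes by length, where 2 wk runs from -0.08 for the shortest to 0.07 for the longest genes and 4 wk from 0.08 to -0.08, while both times together stay near 0.

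Gene lists were described by their members' counts and median, and no list was tested as a set. Over both times the median of all genes was 0.00. It was 0.03 at 2 wk and -0.03 at 4 wk, and median-of-ratios scaling brought both to -0.00, so that list medians at a single time are to be read against shifts of that size. For neurons, the dentate granule list had 9 of 12 members higher (median 0.07) and the list of CA2 and CA3 10 of 14 (median 0.04), while CA1 had 3 of 9 higher (median -0.03). The smallest p in these lists belonged to Lct (0.29) and Dsp (0.36) of the dentate gyrus, Bok of CA3 and Nov (-0.20), a matricellular protein of CA1. The unadjusted counts in these lists were 2 higher of 12, 1 higher of 14 and 1 lower of 9, where 2.47% of all genes were higher and 1.85% lower by that measure. Lct was at 0.24 and Dsp at 0.31 without the striatum-rich library, both no longer at an unadjusted p under 0.05. Nov was at -0.26 and Bok at 0.24 in that fit, both still at an unadjusted p under 0.05.

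Of the 14 genes for interneurons and GABA transmission 11 were lower, with a median of -0.04 and 1 at an unadjusted p under 0.05, Dlx5 (-0.30), a transcription factor of these cells. Dlx5 was at -0.20 without the striatum-rich library, with an unadjusted p of 0.0635 from limma. Next in order came Gad1 (-0.12), Slc32a1 (-0.19), the vesicular GABA transporter, and Gad2 (-0.11). Gad1, which makes GABA from glutamate, was 144.7 to 199.7 TPM in NCAC and 157.4 to 217.2 TPM in Con. At 4 wk this list had 12 of 14 lower, with 5 lower and 1 higher at an unadjusted p under 0.05, where 6.55% of all genes were lower and 4.32% higher by that measure. At 2 wk it had 9 of 14 higher. Neuropeptide genes were lower in 15 of 18 over both times (median -0.09), with Vip at -0.25, Nts at -0.32 and Tac1 at -0.41, of which Tac1 is also a striatal gene. Without the striatum-rich library Tac1 was at -0.13 over both times, and 12 of the 18 genes were lower (median -0.11). At 2 wk 16 of the 18 were lower (median -0.20). At 4 wk 10 of the 18 were higher (median 0.06), and 12 without the striatum-rich library (median 0.16). With the trend of each library on GC content and gene length removed, the median was -0.06 at 2 wk and -0.04 at 4 wk. Receptors for serotonin and noradrenaline had 13 of 19 lower (median -0.05), with Adra1a at -0.16 and Htr2a at 0.16.

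Among glutamatergic genes Slc17a7, the vesicular glutamate transporter of hippocampal pyramidal cells, had a median of 1144 TPM in NCAC and 1082 TPM in Con, a difference of 0.15, and Camk2a differed by 0.12. Each was at an unadjusted p under 0.05, and in the other direction so were the receptor genes Grik3 (-0.18), Grm4 (-0.34) and Grm3 (-0.14). Without the striatum-rich library these 3 receptor genes were at -0.13 for Grik3, -0.21 for Grm4 and -0.10 for Grm3, each at an unadjusted p over 0.05. Bdnf, the neurotrophin, was 21.5, 22.4 and 27.4 TPM in NCAC at the lowest, median and highest, against 18.2, 20.8 and 23.4 TPM in Con (0.16). Immediate early genes, which neuronal activity induces, had 12 of 20 higher with a median of 0.09, led by Dusp6 (0.19). Arc, at 0.40, spread from 57.7 to 194.2 TPM in NCAC and from 52.2 to 149.1 TPM in Con.

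Glial lists lay close to 0 over both times, while some stood further from 0 at a single time. Homeostatic astrocyte genes had a median of 0.01 over 16 members and reactive astrocyte genes -0.03 over 18, of which Serpina3n (0.20) and Steap4 (-0.42) had an unadjusted p under 0.05 and Vim (0.16) did not. Slc1a2, the astrocytic glutamate transporter, was at -0.13. Myelin genes were lower in 14 of 18 (median -0.05), led by Opalin (-0.23), and the list's median was -0.16 at 2 wk and 0.07 at 4 wk. Oligodendrocyte precursor genes were lower in 13 of 17 (median -0.04), with Lhfpl3 at -0.16 and Bmp4 at 0.24. Resting microglial genes were lower in 9 of 14 (median -0.02), with Cx3cr1, the fractalkine receptor, at -0.16 and Gpr34 at -0.10, and activated microglial genes in 11 of the 15 tested (median -0.03). The median of the activated list was -0.16 at 2 wk and 0.11 at 4 wk. Complement genes were lower in 11 of 14 (median -0.10), among them C1qa (-0.18), part of the initiator C1q, and C3ar1 (-0.32), a receptor of activated C3. The complement median was -0.19 at 2 wk and 0.01 at 4 wk. At 2 wk 3 of these 14 were lower at an unadjusted p under 0.05, where 3.68% of all genes were. Over both times every gene of these lists had an adjusted p of 1.

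Interferon and antigen presentation genes were higher in 26 of 31 over both times (median 0.12), with 0 at an unadjusted p under 0.05. H2-K1, a class I heavy chain, averaged 15.0 TPM in NCAC and 12.7 TPM in Con. At 4 wk 29 of 31 were higher with a median of 0.25, with 7 higher and 1 lower at an unadjusted p under 0.05, against 4.32% of all genes higher. At 2 wk 11 of 31 were higher with a median of -0.07. Border macrophage and class II genes had a median of 0.24 over 10 members, which was 0.17 without the striatum-rich library. H2-Aa, a class II chain, was 0.516, 3.02 and 8.22 TPM in NCAC, against 0.645, 1.40 and 2.49 TPM in Con (0.69). The IL6 and STAT3 list stood at -0.01 over 20 genes, with Il4ra at -0.23. Of the lists for blood leukocytes, 6 of 18 lymphocyte genes and 4 of 15 neutrophil and monocyte genes reached the level for testing, and S100a8 was at 0.946 TPM or less in every library. Of 14 melanocyte genes 8 were tested, with Pmel at a median of 0.829 TPM in NCAC and 0.538 TPM in Con (0.40).

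Choroid plexus genes were lower in 14 of 14, with a median of -0.65. Ttr, the transthyretin that this epithelium secretes, was 160.8, 1194, 3451, 707.2 and 2584 TPM in the NCAC libraries of 2 wk and 2745, 4929, 4417, 7722 and 1952 TPM in those of Con. At 4 wk it was 132.1, 8771, 6361, 205.4 and 1445 TPM in NCAC and 2450, 3644, 3279, 3977 and 4847 TPM in Con. NCAC libraries thus included both the lowest and the highest values, and the ranges overlapped at each time. The summed level of the list was 386 to 10790 TPM in NCAC (median 2398) and 2953 to 9194 TPM in Con (median 5065). In bulk tissue, fewer cells of a type and less RNA per cell cannot be told apart, and how much plexus was dissected with the tissue is not recorded in the labels.

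Genes of the striatum were lower in 18 of 19 over both times (median -0.32), with a summed level of 515 to 735 TPM in NCAC and 494 to 3310 TPM in Con, the highest being the striatum-rich Con library. At 2 wk, which does not hold that library, the list's median was -0.10. Without that library 11 of 19 were higher over both times (median 0.03), and at 4 wk the median was 0.06, against -0.55 with it. Meningeal fibroblast genes were higher in 11 of 14 (median 0.21) and thalamus genes lower in 11 of 15 (median -0.07). Endothelial genes were higher in 14 of 20 (median 0.03), and the VEGF receptor genes Flt1 at -0.11 and Kdr at -0.18 were among the 6 lower ones. Pericyte and smooth muscle genes were higher in 7 of 12 (median 0.03), up to 0.37 for Tagln, an actin-binding protein of smooth muscle. At an unadjusted p under 0.05 there were 0 higher and 3 lower of these 12, Kcnj8 (-0.20), Abcc9 (-0.17) and Rgs5 (-0.10), where 1.85% of all genes were lower by that measure. Without the striatum-rich library 1 of the 12 was lower at that threshold.

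Glucocorticoid targets were higher in 18 of 23 over both times (median 0.16), with 0 at an unadjusted p under 0.05. At 2 wk the median was 0.31, with 5 higher and 1 lower at an unadjusted p under 0.05, where 5.86% of all genes were higher and 3.68% lower by that measure, and at 4 wk the median was -0.02. The smallest p belonged to Errfi1 (0.18), Klf9 (0.09) and Per1 (0.19). Per1, a clock gene that glucocorticoids also induce, was 32.1, 48.4 and 55.7 TPM in NCAC and 30.3, 42.3 and 63.2 TPM in Con. Without the striatum-rich library the median of the glucocorticoid targets was 0.11 over both times. In that fit 1 target was higher at an unadjusted p under 0.05, Per1 (0.25). At 4 wk the median was -0.13 without that library, with 16 of 23 lower. Clock genes had 8 higher and 1 lower of 19 at an unadjusted p under 0.05 at 2 wk. Of all genes 5.86% were higher and 3.68% lower at 2 wk by that measure. At 4 wk 4 of the 19 were lower, where 6.55% of all genes were lower. The clock median was 0.14 at 2 wk and -0.08 at 4 wk. With the trend of each library on GC content and gene length removed, it was 0.10 at 2 wk and -0.02 at 4 wk. Over both times Arntl, the activator of the clock, was at -0.20, Ciart, a repressor, at 0.28 and Cry2, a repressor, at 0.11.

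Ribosomal protein and oxidative phosphorylation genes stood in opposite directions at the 2 times. Cytosolic ribosomal protein genes had a median of -0.15 at 2 wk with 39 of 46 lower, 8 of them at an unadjusted p under 0.05, and of 0.28 at 4 wk with 46 of 46 higher, 25 of them at that threshold. Of all genes 3.68% were lower at 2 wk and 4.32% higher at 4 wk by that measure. Nuclear genes of oxidative phosphorylation had -0.34 at 2 wk with 31 of 40 lower and 0.34 at 4 wk with 33 of 40 higher. At an unadjusted p under 0.05 there were 9 lower and 2 higher of these 40 at 2 wk, and 12 higher at 4 wk. With both times together these medians were 0.04 and 0.01. Replication-dependent histone genes were lower in 11 of 12 at 2 wk (median -0.55) and higher in 8 of 12 at 4 wk (median 0.20). Mitochondrially encoded genes had a median of -0.05 at 2 wk and -0.09 at 4 wk. With the GC content and length trend of each library removed, the median of ribosomal protein genes was -0.05 at 2 wk and 0.17 at 4 wk, and that of oxidative phosphorylation genes -0.16 at 2 wk and 0.16 at 4 wk. In that fit histone genes had a median of -0.22 at 2 wk and -0.01 at 4 wk, and mitochondrially encoded genes 0.12 at 2 wk and -0.14 at 4 wk.

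**Figure D4:**
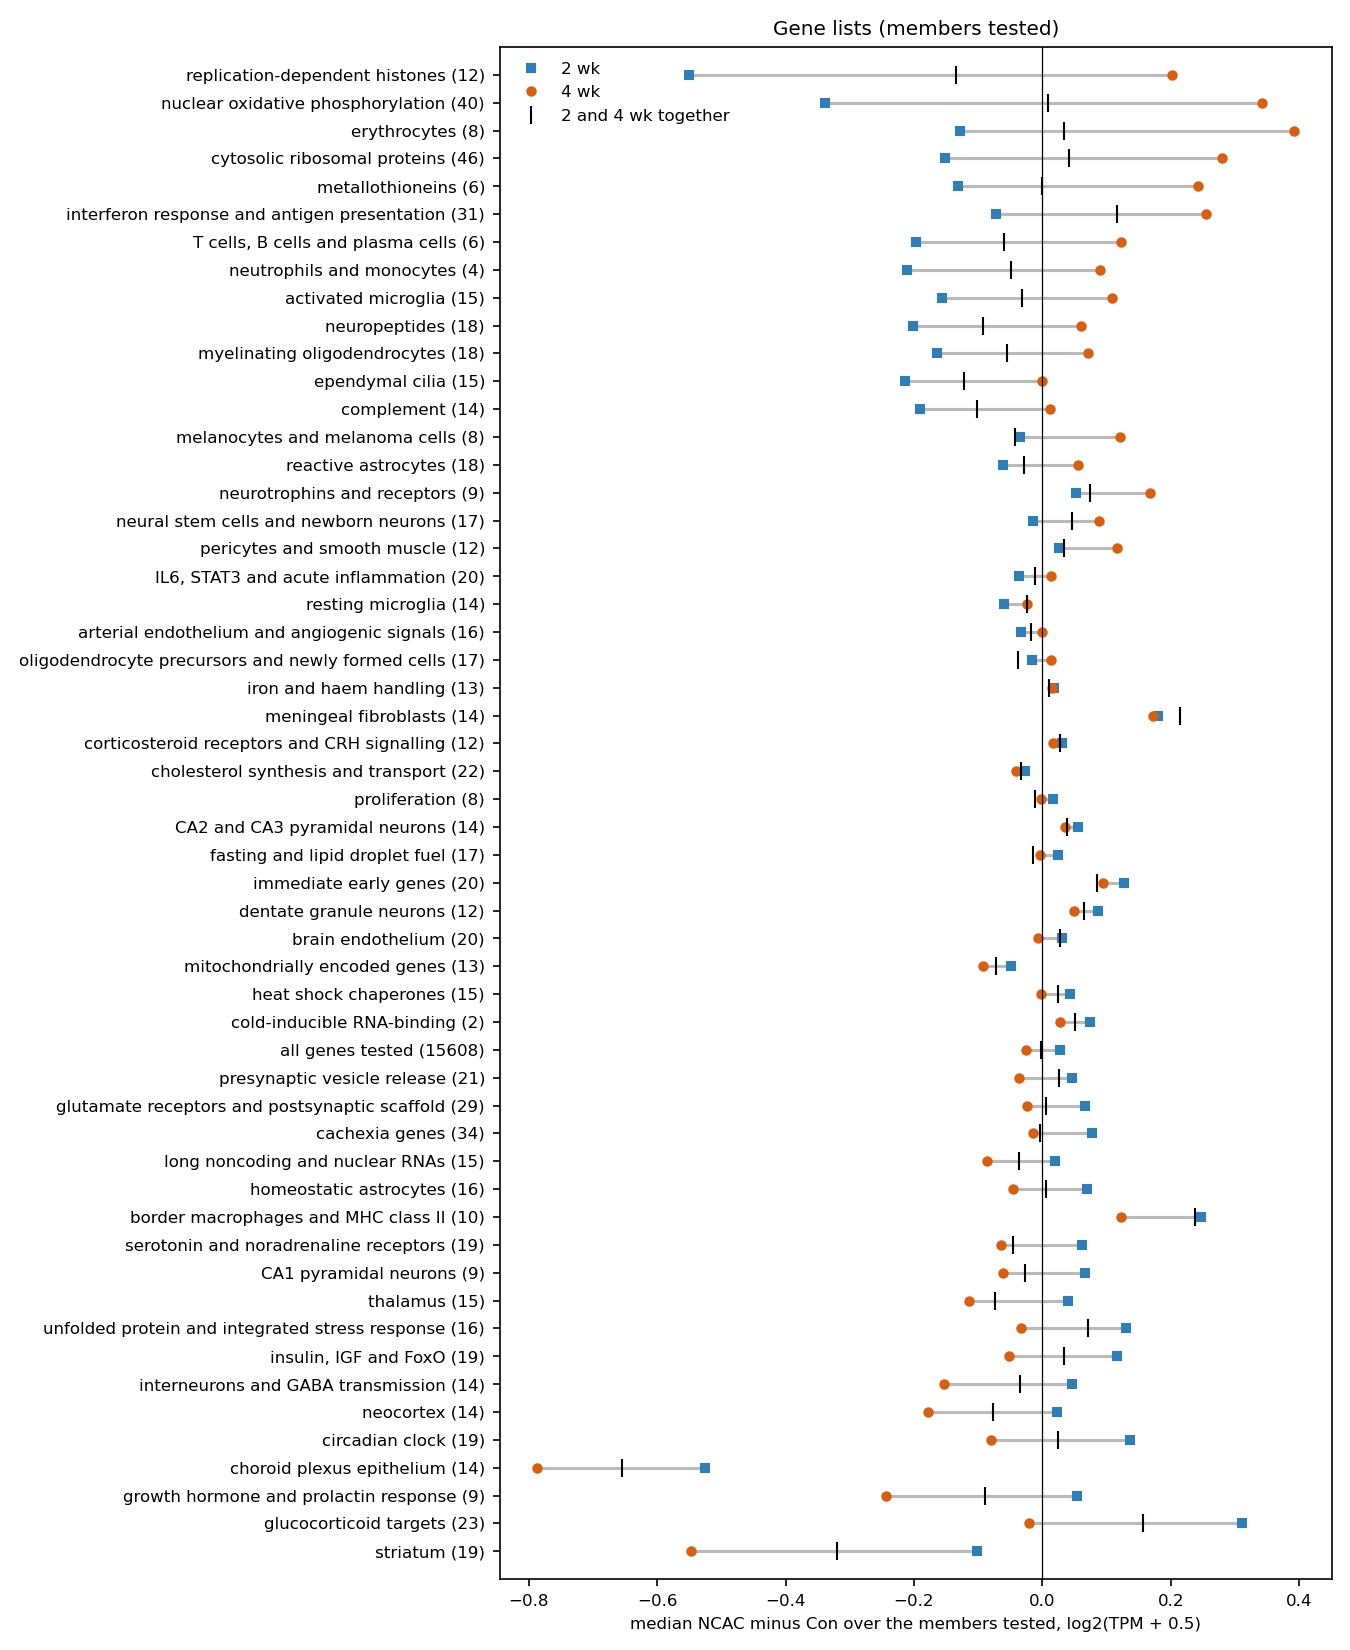
Median NCAC minus Con difference over the tested members of each list (horizontal axis, log2(TPM + 0.5)), at 2 wk (blue squares), 4 wk (orange circles) and both together (black ticks), sorted by the change between the times. The ribosomal protein and oxidative phosphorylation lists lie below 0 at 2 wk and above 0 at 4 wk. With all libraries in the fit the choroid plexus and striatum lists lie below 0 at both, whereas without the striatum-rich library the striatum list was at 0.06 at 4 wk.

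Lists for feeding, fuel and protein stress had medians between -0.03 and 0.07: fasting and lipid fuel genes -0.02 over 17 (Cd36 -0.22), insulin, IGF and FoxO genes 0.03 over 19 (Igfbp4 0.14), cholesterol genes -0.03 over 22 (Dhcr7 0.11, Sc5d -0.09), and unfolded protein and integrated stress genes 0.07 over 16. Heat shock chaperones stood at 0.02 over 15, with Dnajb5 at 0.13, and metallothioneins at 0.00 over 6. Genes of neural stem cells and newborn neurons had a median of 0.05 over 17, with Fabp7 at -0.33 and Dcx at -0.09, and those of proliferation -0.01 over 8.

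Cwc22, a splicing factor with near-identical copies in the mouse genome, had 2 levels. In 7 NCAC libraries and all 10 Con libraries it was 12.4 to 18.8 TPM, and in the other 3 NCAC libraries 559.7, 251.9 and 291.5 TPM. Over the whole series 13 of 60 libraries exceeded 100 TPM, in every group but CAC at 4 wk and Con at 2, 4 and 6 wk. The difference of 1.24 therefore rests on 3 libraries, and its value is uncertain because copies can share reads.

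The genes that an earlier analysis of the same table named for cachexia were followed in NCAC at the early times. The list was chosen from CAC libraries of later times, so the CAC values are a description with no test. None of the 34 genes had an unadjusted p under 0.05 in NCAC against Con over both times. At 2 wk 1 of the 34 was higher and 5 lower at that threshold, where 5.86% of all genes were higher and 3.68% lower. There were 0 in either direction at 4 wk. The differences of the 34 ran from -0.97 to 0.99 at 2 wk and from -0.38 to 0.77 at 4 wk. The difference of CAC from Con at 8 wk lay outside the 95% interval of the early NCAC difference for 33 of 34, Dcc being the exception. Choosing the list from late CAC libraries favours such a count, and the SE of the CAC values was not used in it. The median size was 0.11 in early NCAC and 1.44 in CAC at 8 wk, against 0.05 for all genes in early NCAC.

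Etnppl, the phosphoethanolamine lyase of astrocytes, was at -0.07 in early NCAC with an interval of -0.64 to 0.51, against 3.21 in CAC at 8 wk. Lcn2, an iron-binding acute phase protein, was at -0.08 (-0.37 to 0.21), against 1.83 in CAC. Gkn3, a gene of arterial endothelium in the mouse brain, was at 0.21 (-0.18 to 0.60), against -2.29 in CAC. The glucocorticoid-induced Sgk1 (0.18), Fkbp5 (0.17) and Pdk4 (0.05) had intervals that included 0, against 1.16, 0.86 and 1.00 in CAC. Fabp7, a fatty acid binding protein of neural stem cells and astrocytes, was at -0.33 (-0.73 to 0.07), against -1.44 in CAC. The sign was shared by 20 of the 34 and differed in 14.

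**Figure D5:**
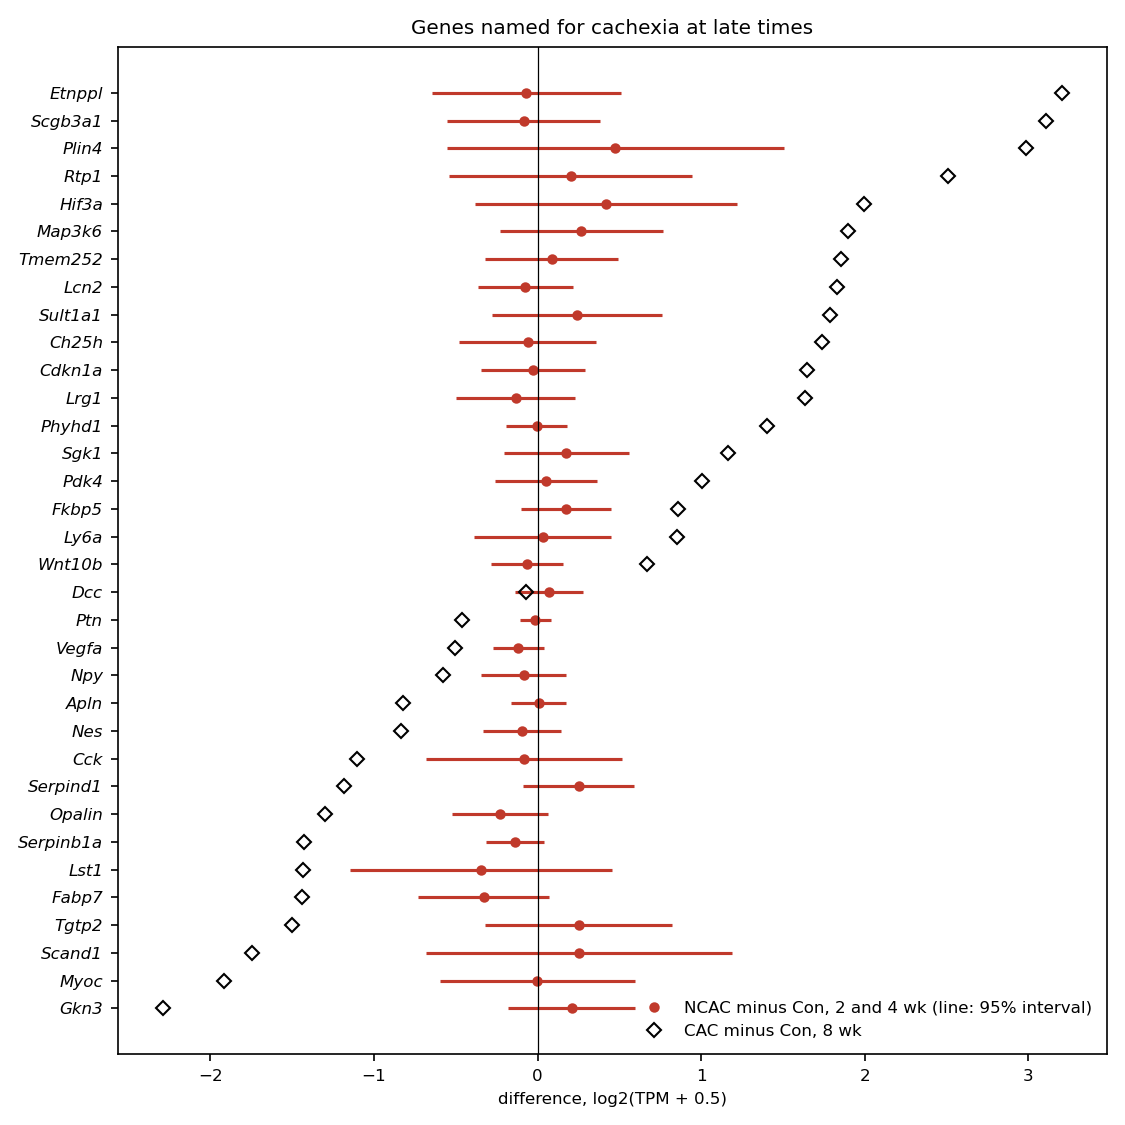
Difference from Con on the log2(TPM + 0.5) scale (horizontal axis) for the 34 genes named for cachexia, with early NCAC as red points and 95% intervals (10 against 10 libraries) and CAC at 8 wk as open diamonds. Every red interval includes 0, and the diamond lies outside the interval for all genes but Dcc.

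The early difference was set against that of later times, from other libraries. In the test of the early minus the late NCAC difference, with late meaning 6 and 8 wk, 0 of 15608 genes passed (0%), with 481 at an unadjusted p under 0.05 (3.08%), 243 positive (1.56%) and 238 negative (1.52%). The smallest adjusted p was 0.999, and 47.4% of all genes were above 0. Voom called 0 genes, with 604 at an unadjusted p under 0.05. With the trend on GC content and length removed the split was 391 positive and 158 negative. The genes with the smallest p were Trim27 (0.22), Ints5 (0.24), Dok1 (0.50) and Trp53rka (0.21) on the positive side, and Pcdha4 (-0.40), Hace1 (-0.23), Ldhd (-0.34) and Bche (-0.56), which encodes butyrylcholinesterase, on the negative side. The late side holds 19 libraries.

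Hippocampal libraries of the CAC and NCAC groups were also compared with each other at the early times, with 9 CAC and 10 NCAC libraries. No gene passed (0 of 15608, 0%), but 2193 had an unadjusted p under 0.05 (14.1%), 1617 higher (10.4%) and 576 lower (3.69%) in CAC, 56.9% of all genes had a difference above 0, and the smallest adjusted p was 0.0531. Voom also called 0 genes, with 2189 at an unadjusted p under 0.05. The split was 1295 higher and 932 lower under median-of-ratios scaling, and 1162 higher and 1016 lower with the trend on GC content and length removed. Klk8 was lower in CAC by a log2 difference of -0.41 ± 0.08, with means of 21.2 TPM in CAC and 26.5 TPM in NCAC at 2 wk and 19.0 TPM in CAC and 26.6 TPM in NCAC at 4 wk. Atrip, a partner of the DNA damage kinase ATR, differed by 0.41, Plekha5 by 0.26, Jade1 by 0.25 and Otof by 0.60. On the lower side with Klk8, Spink8 differed by -0.51, H2afv by -0.24 and Mpv17 by -0.16. Striatum genes had a median of 1.05 between CAC and NCAC, and the part of striatal RNA in these genes was not tested. With a single library left out the number of genes that passed ran from 0 to 25, with 25 without replicate 5 of CAC at 4 wk and 20 without replicate 5 of NCAC at 4 wk.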

How the data were processed

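The authors deposited a table of TPM, a length-scaled share of transcripts, for 47643 gene symbols in 60 hippocampal libraries, made with a stranded mRNA kit on total RNA per the labels' protocols and with mm10 as the genome per the submitters' processing notes. For the aligner, counter and annotation the choice is not given in the sources used here. Low TPM values were whole multiples of the value of 1 read (tolerance 0.02 read) for 24227 of 24227 symbols above 0, which gave the depth. Where the exon union of GENCODE M21 did not give whole reads, a length that did was searched for. The full share is therefore partly built in, and 64.7% of gene lengths equalled the exon union. The lengths so obtained also entered the length classes and the removal of the trend on length.

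Genes with at least 1 TPM in at least 4 libraries (15608) were tested on the log2(TPM + 0.5) scale by limma 3.58.1 (R 4.3.3), whose variance prior followed mean level, with Benjamini-Hochberg adjustment at 0.05. Fold changes on this scale understate those of low genes. The early comparison used 20 libraries with week as a covariate, single times used the 4 group means, and comparisons beyond them 12 group means over 60 libraries. Slopes were compared by exact permutation. Named genes were the 12 of smallest p in each direction early, 4 elsewhere, 2 to 4 of each list, the cell type markers and the genes named for cachexia, without clone-named genes. Overlap of the groups is described for named genes only, and picking genes by p in the same libraries favours separation at a single time. Groups, lists (54) and tests were chosen with earlier results of these data known. Coordinates are those of GENCODE M21 (GRCm38). The fits were tested on simulated data. Alternatives changed pseudocount, filter, scaling, trend, weights, covariates and libraries, used voom on recovered reads, or added a replicate block.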

Additional observations from a re-analysis of the deposited data

Results flagged for a closer look

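Of 196 sets of 5 libraries (24 leading genes and 25 marker genes in 4 groups each), 18 had a library whose gap to the nearest of the others exceeded Dixon's 95% critical value of 0.71. Chance flags about 1 in 20 groups.

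Replicate 2 of Con at 4 wk held 5 of these, with Drd1 at 77.4 TPM, Drd2 at 83.1 TPM, Adora2a at 122.7 TPM, Kctd8 at 8.23 TPM and Th at 2.02 TPM, each above the other 4 libraries of its group. Adora2a was also high in replicate 5 of NCAC at 4 wk, at 10.5 TPM.

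Among the leading genes, Ccs was low in replicate 1 of NCAC at 4 wk (36.8 TPM), Ccdc90b high in replicate 3 of NCAC at 2 wk (22.8 TPM) and Tox2 low in replicate 1 of Con at 2 wk (13.8 TPM). Replicate 3 of Con at 2 wk was high for Grina (636.5 TPM), Pip4k2c (144.2 TPM) and the CA1 marker Wfs1 (126.9 TPM).

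The other 6 were genes near 0. Cd3e was 0.1395 TPM in replicate 1 of NCAC at 2 wk and S100a8 0.9457 TPM in replicate 2 of NCAC at 4 wk. Mlana was 0.1506 TPM in replicate 3 of Con at 2 wk and 0.1587 TPM in replicate 3 of Con at 4 wk. In replicate 2 of Con at 2 wk Tyr was 0.05585 TPM and Cd8a 0.02729 TPM.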

How the results depend on the processing

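The early comparison passed 0 genes in all 14 other settings and in all 20 fits that left out a library, as did the 2 wk comparison (13 settings, 10 libraries) and the early minus late comparison (11 settings, 39 libraries). At 4 wk, 1 gene passed with no filter on low values, 7 with genes of at least 5 TPM and 13 with array weights, and leaving out a library gave 0 to 45. For the change between 4 and 2 wk, 1 gene passed with genes of at least 5 TPM, 5 with array weights, 1 with voom, 2 with covariates for striatum, thalamus and choroid plexus, and 2 without the striatum-rich library, which was chosen after seeing the data. Leaving out a library gave 0 to 6 there, with 6 without replicate 3 of Con at 4 wk. It gave 2 without replicate 2 of Con at 4 wk or replicate 3 of NCAC at 2 wk, and 1 without replicate 1 or 4 of NCAC at 4 wk. Replicate 2 of Con at 4 wk is the striatum-rich library. The fit without it is thus listed both as a setting and as a library left out, also in the early and 4 wk comparisons. For CAC against NCAC, 1 gene passed with no filter and 5 with array weights, and leaving out a library gave 0 to 25. Calls appeared there without replicates 5, 2 or 3 of CAC at 4 wk (25, 11 and 15), replicate 5 of CAC at 2 wk (8), replicates 2 or 4 of NCAC at 2 wk (10 and 16) and replicate 5 of NCAC at 4 wk (20). The cause was not tested. The 98 values of single genes kept their direction wherever they were called, and 65 of 3242 alternative values, all uncalled and of 13 genes, changed sign. At an unadjusted p under 0.05, array weights gave 2575 genes at 4 wk and 1212 for the early minus late difference, and no filter on low values gave 847 for early minus late.

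Replicate numbers did not pair the samples, since correlations of deviations between same-numbered NCAC and Con libraries ran from -0.233 to 0.263 and 2 of 10 libraries correlated best with their own number. With a replicate block 3 genes passed for the change between 4 and 2 wk, and 0 in each of the other 5 comparisons.

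Depth limits low genes, since the median half-width of the 95% interval was 0.27 log2 units under a mean of 5 TPM.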

Other observations

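Genes of pituitary hormones appeared in a single early library. In replicate 5 of Con at 2 wk prolactin (Prl) was 105.1 TPM and growth hormone (Gh) 31.1 TPM. In the 10 NCAC libraries Prl was at most 0.804 TPM and Gh was listed at 0, and in the other 9 Con libraries Prl was at most 3.97 TPM and Gh at most 0.917 TPM.

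Genes of ependymal cilia, which line the ventricles, were lower in NCAC in 12 of 15 over both times (median -0.12), with 13 of 15 lower at 2 wk and 8 of 15 at 4 wk. Tctex1d4 was at -0.46 and Dnah9, an axonemal dynein, at 0.21. Neocortex genes were lower in 11 of 14 (median -0.08) and in 12 of 14 at 4 wk, with Tbr1 at -0.11 and Lamp5 at -0.14. The cold-inducible RNA-binding genes differed, with Rbm3 at 0.16 and Cirbp at -0.05. Every gene of these lists had an adjusted p of 1.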
